A study of Mus musculus with 2 samples.

Results

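Group 2 innate lymphoid cells (ILC2) of the mouse lung were picked from each library by a gate on raw UMIs (unique molecular identifiers, which count captured transcripts once each). The gate kept cells with at least 1 UMI of Gata3 and at least 3 UMIs over Gata3, Il1rl1 and Hs3st1 together, at least 1 UMI of Ptprc, and at most 1 UMI over Cd3e, Cd3d and Cd3g. It also asked for 0 UMIs of Foxp3, of Cd79a, of Cpa3 with Mcpt8 and of Ncr1 with Klre1. It found 365 cells among 15111 kept cells of the Cre library and 108 among 12863 kept cells of the control library, 473 of 27974 in all.

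The Cre library came from Nkx2.1 Cre;Lkb1f/f mice and the control library from Lkb1f/f mice, so both carried floxed alleles of Lkb1 (gene symbol Stk11), a kinase upstream of AMPK. Nkx2-1 is a transcription factor of the lung epithelium, and the driver is thus not aimed at lymphoid cells. Each library pooled whole-lung cells of 3 mice aged 5 weeks, which makes 1 library per genotype with no replicate. No statistical test of the genotype was possible, and every interval given covers counting error only, not the spread between mice.

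ILC2 are tissue-resident lymphocytes without an antigen receptor. They depend on the transcription factor GATA3, respond to alarm signals of the epithelium such as IL-33 through its receptor subunit ST2 (encoded by Il1rl1), and answer with the type 2 cytokines IL-5 and IL-13. In the lung IL-5 sustains eosinophils, while IL-13 acts on the airway epithelium and on macrophages. Il13 and Il5 are neighbours on chromosome 11, with Il13 at 53631324 to 53634702 on the minus strand and Il5 at 53720794 to 53725106 on the plus strand of GRCm38 (GENCODE M21). They stood far apart in the comparison of the libraries, so their promoters are shown here, from 250 bases before to 50 bases after the start, from RefSeq (GRCm38.p6). Capitals mark matches on either strand to AGATAA or to its close forms, which are AGATAG and likewise TGATAA and likewise TGATAG, letters that GATA factors bind.
Il13 promoter, chr11:53634653-53634952, minus strand: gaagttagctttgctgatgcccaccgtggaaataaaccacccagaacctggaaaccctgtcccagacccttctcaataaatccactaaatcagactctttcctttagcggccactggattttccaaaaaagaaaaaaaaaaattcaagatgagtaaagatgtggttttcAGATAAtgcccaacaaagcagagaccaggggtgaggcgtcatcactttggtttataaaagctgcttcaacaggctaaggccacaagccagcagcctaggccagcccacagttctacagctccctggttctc
Il5 promoter, chr11:53720544-53720843, plus strand: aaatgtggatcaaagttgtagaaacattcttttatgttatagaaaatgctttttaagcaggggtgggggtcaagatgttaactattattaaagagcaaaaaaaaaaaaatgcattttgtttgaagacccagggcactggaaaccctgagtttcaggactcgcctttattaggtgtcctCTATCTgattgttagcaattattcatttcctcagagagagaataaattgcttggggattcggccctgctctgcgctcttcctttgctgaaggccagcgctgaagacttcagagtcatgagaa
The Il13 window held AGATAA once, 81 bases before the start, and the Il5 window held the reverse complement of AGATAG once, 72 bases before the start. AGATAA in either direction occurred in 11.2% of 32851 RefSeq promoter windows of this length, and any of the 4 forms in 29.8%, so such a match is common and describes these letters only.

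The gated cells carried most of the further genes that define ILC2, which checks the label apart from the gate. Rora, a transcription factor needed for ILC2, stood at 1658 CPM (UMIs of the gene per 1000000 UMIs of the cells) in the Cre library and 1598 CPM in the control library, 18.9 and 24.3 times its level in the other kept cells. The 20 genes most enriched over the other kept cells in both libraries began with Ccl1, Il13, Il5 and Csf2, and held Calca, Cxcr6, Il2ra, Rora, Tnfrsf18 and Icos. They also held Tcrg-C4, a constant region gene of the T cell receptor gamma chain. It stood at 57.7 CPM in 71 Cre cells and 73.7 CPM in 30 control cells, 31.9 and 47.9 times its level in the other kept cells. Of the defining genes outside the gate, Ptgdr2, the receptor CRTH2, was nearly absent, with 1 UMI in the Cre and 0 in the control library. So was the neuromedin receptor Nmur1, with 2 and 4 UMIs. Il18r1, another of these genes, stood at 44.3 CPM in 30 Cre cells and 28.2 CPM in 8 control cells. That was below its level in the other kept cells, 48.8 CPM in the Cre and 52.2 CPM in the control library.

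Markers of other lymphoid and granulocytic cells were in part absent and in part present. Eomes, Ifng, Prf1, Cd8a, Cd8b1, Il23r and Il22 had 0 UMIs in the gated cells of both libraries, as did the mast cell and basophil genes Ms4a2, Mcpt4 and Tpsb2. Trac, the constant region of the T cell receptor alpha chain, had 21 UMIs in the Cre and 2 in the control library. Trbc2 of the beta chain stood at 299 CPM in the Cre and 407 CPM in the control library, against 1333 and 1180 CPM in CD4 T cells, and Trbc1 at 178 and 193 CPM. The 12 T cell markers summed to 618 CPM in the Cre and 721 CPM in the control library, above the 340 and 381 CPM of the other kept cells. The 10 basophil and mast cell markers summed to 310 CPM in the Cre and 266 CPM in the control library, most of it Kit, at 279 and 221 CPM, against 154 and 301 CPM in the other kept cells. No gated cell shared its barcode with a kept cell of the other library, although 59 kept barcodes occurred in both.

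The genes of the gate are given as a description, since they chose the cells. Gata3 stood at 1234 CPM in the Cre and 782 CPM in the control library, Il1rl1 at 1090 and 746 CPM, and Hs3st1, a heparan sulfate sulfotransferase, at 569 and 511 CPM. The median cell held 12 UMIs of these genes together in the Cre and 10.5 in the control library. Just inside the limit, with a sum of 3, lay 12 Cre and 10 control cells, and just outside, with a sum of 2, lay 15 Cre cells and 1 control cell. With 1 Cd3 UMI, 11 Cre and 11 control cells lay just inside, and with 2, 15 Cre and 5 control cells lay just outside. The condition on Cpa3 and Mcpt8, genes of mast cells and basophils, took out 15 Cre and 10 control cells that met every other condition. Those 10 control cells had 1618 CPM of Rora and held 60 Il5 and 181 Ccl1 UMIs. The 15 Cre cells had 1962 CPM of Rora and held 51 Il5 and 74 Ccl1 UMIs. These are ILC2-like values, and the gate therefore does not hold every cell of this profile in either library.

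Gated ILC2 were a larger share of the Cre library. They made up 2.42% of kept cells in the Cre library (95% Clopper-Pearson interval 2.18 to 2.67%) and 0.840% in the control library (0.689 to 1.01%), a ratio of 2.88 (2.31 to 3.60). Among kept cells with a Ptprc UMI, the pan-leukocyte gene, the shares were 4.47% in the Cre and 1.46% in the control library, a ratio of 3.06 (2.46 to 3.83). Other lymphocytes gated in the same way had ratios nearer to 1. CD4 T cells were at 1.07 (0.900 to 1.27), regulatory T cells at 1.15 (0.854 to 1.56), NK cells at 1.26 (1.09 to 1.46) and B cells at 0.688 (0.640 to 0.739). A gate on UMIs depends on depth and on the level of the gate's own genes. Gata3 was 1.58-fold and Il1rl1 1.46-fold higher in Cre than in control ILC2, which eases passage of the gate in the Cre library at equal depth. In B cells they were 7.21-fold and 24.4-fold higher. With every cell thinned to 1000 UMIs before the gate, the shares were 0.960% in the Cre and 0.188% in the control library, a ratio of 5.11 (3.20 to 8.54). How far differences in the level of the gate genes, in dissociation or in the shares of other cells contribute was not tested.

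The gated cells held 1714514 UMIs in the Cre and 638097 in the control library, with a median of 3757 UMIs and 1441 genes per Cre cell and 5010 UMIs and 1574 genes per control cell. UMIs were summed over the gated cells of a library and expressed as CPM. A gene counted as measured with at least 20 UMIs over both libraries, and as higher or lower where log2((Cre CPM + 10)/(control CPM + 10)), less the median of all measured genes, passed 1.5-fold. That median was 0.18, so calls are relative to it, while the folds in the text are plain ratios of CPM. Of 8245 measured genes, 609 were higher in the Cre library (7.39%) and 568 lower (6.89%), 14.3% either way. Without taking off the median, 1281 were higher and 232 lower, so the balance of the directions rests on that choice. Stk11 itself, the floxed gene, had 141 UMIs and 82.2 CPM in Cre ILC2 and 27 UMIs and 42.3 CPM in control ILC2, and these 3' end reads do not show whether an exon was deleted.

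Il13 was the secreted product that differed most, and Il5 next to it in the genome differed little. Il13 had 644 UMIs in 116 of the Cre cells and 32 UMIs in 14 of the control cells. This was 376 CPM (347 to 406) in the Cre and 50.1 CPM (34.3 to 70.8) in the control library, 7.49-fold higher (5.25 to 11.0). With each cell thinned to 1000 UMIs before summing, the fold was 4.86, at 360 CPM in the Cre and 74.1 CPM in the control library. That control level rests on few UMIs. Il5 had 599 UMIs in 140 Cre cells and 196 UMIs in 42 control cells, or 349 CPM in the Cre and 307 CPM in the control library, a fold of 1.14 (0.966 to 1.34). The interval for Il5 includes 1 and the intervals of the 2 folds do not overlap. The other genes of this cytokine cluster gave no such contrast. Csf2, encoding GM-CSF, stood at 408 CPM in the Cre and 538 CPM in the control library, 0.758-fold. The 5 highest cells held 15.7% of the Csf2 UMIs in the Cre and 50.1% in the control library, and 24.5% and 41.3% of the Il5 UMIs. Il4 had 13 UMIs in the Cre and 3 in the control library, and Il3 had none in either.

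**Figure D1:**
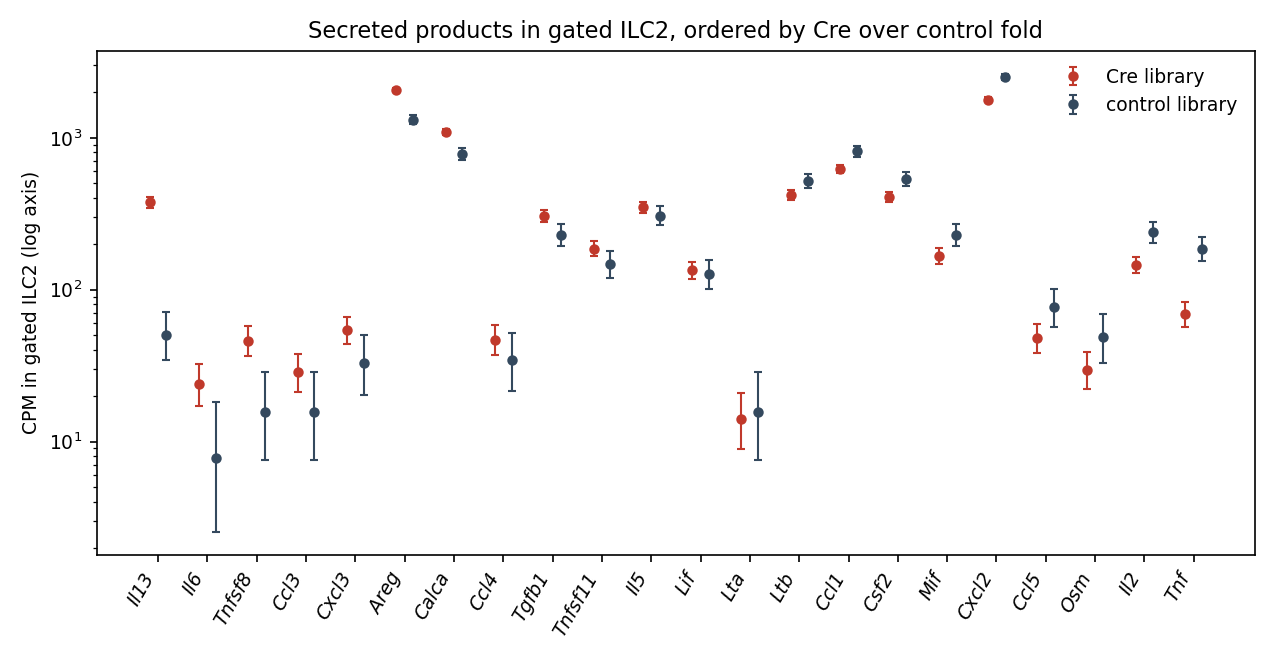
Level of each measured secreted product in gated ILC2, in CPM on a log axis, Cre library in red on the left and control library in dark blue on the right of each pair, ordered by fold. Bars are exact Poisson 95% intervals of the summed UMIs, counting error only. Il13 stands at 376 CPM in the Cre and 50.1 CPM in the control library, while Il5, near the middle, is at 349 and 307 CPM.

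Among the 22 measured secreted products, 3 were higher in the Cre library and 6 lower (7.39% and 6.89% over all measured genes). The list median was -0.05 relative to all genes. The higher ones were Il13, Il6 and Tnfsf8, which encodes CD30 ligand. Tnfsf8 stood at 46.1 CPM in 26 Cre cells and 15.7 CPM in 5 control cells. Il6 stood at 23.9 CPM in the Cre and 7.84 CPM in the control library, on 41 and 5 UMIs, and its level in B cells, 45.9 CPM in the Cre and 7.46 CPM in the control library, was as high. The lower ones were Tnf, Il2, Osm, Ccl5, Cxcl2 and Mif. Il2, a T cell growth factor, stood at 146 CPM in the Cre and 238 CPM in the control library, a fold of 0.612 that was 0.920 with each cell thinned to 1000 UMIs. Tnf stood at 68.8 CPM in the Cre and 186 CPM in the control library, and 86.6% of the control UMIs lay in 5 cells, so few cells set that level. Over the alternatives the fold ranged from 0.212 to 0.562 for Tnf, from 0.448 to 1.02 for Ccl5, from 1.72 to 14.3 for Il6 and from 2.45 to 7.71 for Tnfsf8.

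Areg, encoding the EGFR ligand amphiregulin of tissue repair, was the most abundant of the ILC2 products in the Cre library, at 2069 CPM against 1318 CPM in the control library, 1.57-fold (1.46 to 1.69). Calca, which encodes the neuropeptide CGRP, stood at 1085 CPM in the Cre and 782 CPM in the control library, 1.39-fold (1.26 to 1.53). Both lay within 1.5-fold of the all-gene median. In B cells Areg stood at 77.2 CPM in the Cre and 5.22 CPM in the control library, and Calca at 19.2 and 0.124 CPM. Ccl1, the ligand of CCR8, leaned the other way, with 619 CPM in the Cre and 815 CPM in the control library, 0.759-fold (0.683 to 0.845), and 52.5% of its control UMIs were in 5 cells.

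Gated ILC2 held 71.6% of all Il13 UMIs of kept cells in the Cre and 48.5% in the control library, and 69.9% and 67.8% of all Il5 UMIs. CD4 T cells held 3.34% of the Il13 UMIs in the Cre library and 1.52% in the control library. Cells gated as basophils or mast cells by at least 2 UMIs of Cpa3 and Mcpt8 together, 6 in the Cre and 10 in the control library, held 0.111% of the Il13 UMIs in the Cre and 21.2% in the control library, and 0 of the Il5 UMIs in the Cre and 13.8% in the control library. The 10 control cells of that gate had 1295 CPM of Rora and 812 CPM of Il1rl1, near the levels of gated ILC2. The 6 Cre cells had 19.2 and 115 CPM. The name of the gate is thus uncertain for the control cells, and their cytokine UMIs are not read as those of basophils or mast cells. In CD4 T cells Il13 had 30 UMIs in the Cre and 1 in the control library, and Il5 had 29 and 0.

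More Cre than control ILC2 held an Il13 transcript, while the shares with Il5 were close. Thinned to 1000 UMIs, 16.5% of Cre ILC2 (12.8 to 20.7%; 60 of 364 cells) and 5.56% of control ILC2 (2.07 to 11.7%; 6 of 108) had an Il13 UMI. For Il5 the thinned shares were 19.5% in the Cre (15.6 to 24.0%) and 17.6% in the control library (10.9 to 26.1%). Averaged over all possible draws of 1000 UMIs, the shares were 18.3% in the Cre and 4.57% in the control library for Il13, and 18.6% in each library for Il5. Without thinning, 31.8% of Cre and 13.0% of control cells had an Il13 UMI, and 38.4% and 38.9% an Il5 UMI. B cells, which should lack both genes, had a thinned share of 0.151% for Il13 in the Cre library and 0 of 1671 cells in the control library, which allows up to 0.180%, at median depths of 2271 and 3343 UMIs. The 5 cells with the most Il13 held 25.3% of the Il13 UMIs in the Cre and 53.1% in the control library.

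The pairing of Il5 and Il13 in single cells was then counted. Of 365 Cre cells, 60 had UMIs of both, 56 of Il13 only, 80 of Il5 only and 169 of neither. Of 108 control cells, 7 had both, 7 Il13 only, 35 Il5 only and 59 neither. Thus 42.9% of the Il5-positive cells in the Cre library and 16.7% in the control library also had Il13. Among all gated cells the Il13 shares were 31.8% in the Cre and 13.0% in the control library. The first pair of values therefore also carries the difference in Il13 itself. Of the Il13-positive cells, 51.7% in the Cre and 50% in the control library, 7 of 14, also had Il5. Thinned to 1000 UMIs, 21 Cre cells and 1 control cell had both, which was 29.6% of the Il5-positive cells in the Cre and 5.26% in the control library, and 35% of the Il13-positive cells in the Cre and 16.7% in the control library. The thinned control shares rest on that 1 cell. Median depth was lower in the Cre cells, as given above.

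**Figure D2:**
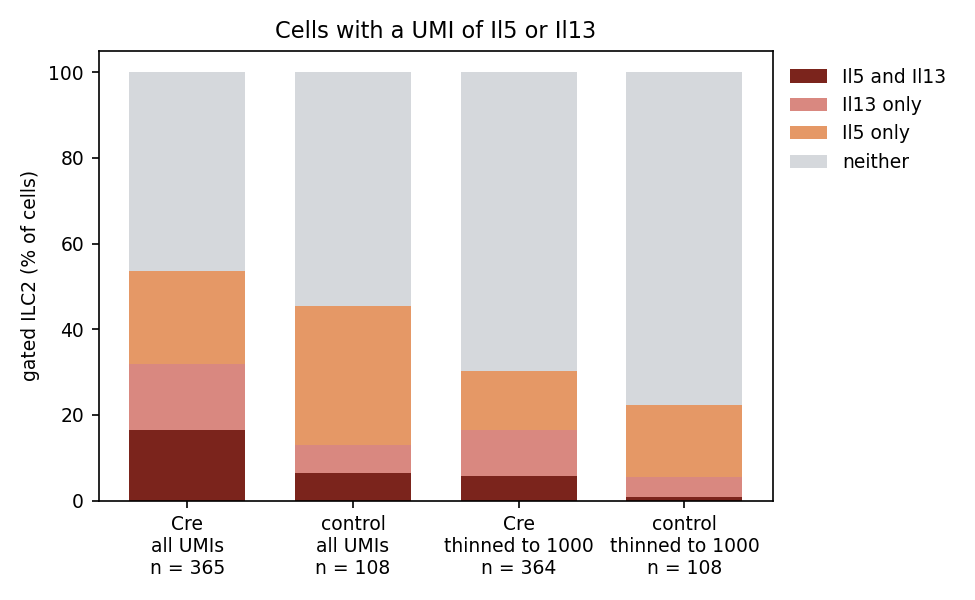
Share of gated ILC2 (% of cells, stacked bars) with UMIs of Il5 and Il13, Il13 only, Il5 only or neither, for the Cre and the control library with all UMIs (365 and 108 cells) and thinned to 1000 UMIs (364 and 108 cells). With all UMIs, cells with both genes are 16.4% in the Cre and 6.48% in the control library, and cells with Il5 only are 21.9% and 32.4%.

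Cells with an Il5 or Il13 UMI were then set against the other gated cells of the same library. They were somewhat deeper, with a median of 3926 UMIs against 3425 in the Cre library and 5293 against 4487 in the control library. Outside the gate genes, 153 list genes had at least 20 UMIs in each library, and 31 were higher and 14 lower in the cytokine-positive cells of both, by intervals that exclude 1. The comparison was made for list genes only, so no share over all genes stands beside these counts. The intervals cover counting error only, not the spread between cells. Another 4 went opposite ways, with Fabp5 higher in positive cells of the Cre library and lower in those of the control library, and Ccl5, Cd69 and Hspa8 the reverse. Several of the listed products were higher in the positive cells of both libraries. Areg stood at 2525 CPM in positive and 1484 CPM in negative cells of the Cre library, and at 2014 and 763 CPM in the control library. Ccl1 stood at 779 and 414 CPM in the Cre library and at 1477 and 287 CPM in the control library, and Csf2 and Tnfsf11, encoding RANK ligand, were higher in the same way. In the control library 5 cells held 52.5% of the Ccl1 and 50.1% of the Csf2 UMIs, so few cells weigh on those values. Irf4, a transcription factor induced by activation, had 121 UMIs in positive and 25 in negative cells of the Cre library, or 126 and 33.3 CPM, while its 7 and 1 UMIs in the control library are too few to compare. Nr4a3, an early response gene of receptor signalling, stood at 1178 and 644 CPM in the Cre library and at 774 and 231 CPM in the control library.

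Genes lower in cytokine-positive cells included Klf2, a factor of quiescence and egress, at 118 CPM in positive and 257 CPM in negative cells of the Cre library and 141 and 352 CPM in the control library. Egr1, Jun, Fos, Dusp1 and Zfp36, immediate early genes that tissue dissociation also induces, were lower as well, with Egr1 at 243 and 595 CPM in the Cre library and 244 and 577 CPM in the control library. Tnf was on this side too, at 38.4 and 108 CPM in the Cre library and 24.7 and 315 CPM in the control library. In the control library 5 cells held 86.6% of the Tnf UMIs, so few cells weigh on that contrast. Klf2, Egr1 and Tnf all stood higher in the other kept cells than in gated ILC2, Tnf at 432 CPM in the Cre and 331 CPM in the control library. The part of RNA of other cells in these values was not tested.

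Most transcription factors of ILC2 lay within 1.5-fold. Of 17 measured, 4 were higher in the Cre library and none lower (7.39% and 6.89% over all measured genes). The list median was 0.24 above that of all genes. Zeb2 stood at 190 CPM in 135 Cre cells and 62.7 CPM in 20 control cells, 3.02-fold (2.17 to 4.31). Nfatc1, which carries calcium signals to the nucleus, stood at 58.3 CPM in the Cre and 20.4 CPM in the control library, 2.86-fold (1.60 to 5.56). Tox and Nfil3, which act early in innate lymphoid development, were 2.07-fold (1.40 to 3.17) and 1.90-fold (1.37 to 2.71) higher. With each cell thinned to 1000 UMIs the folds were 5.93 and 3.03. The control levels there, 18.5 CPM for Tox and 46.3 CPM for Nfil3, rest on few UMIs of a single draw, so these sizes are uncertain. Nfil3 was 1.71-fold higher (1.36 to 2.15) and Zeb2 1.42-fold higher (1.30 to 1.55) in B cells as well. Rora was at 1.04-fold (0.965 to 1.11), and Id2, the inhibitor of E proteins common to innate lymphoid cells, was at 1371 CPM in the Cre and 901 CPM in the control library, within 1.5-fold of the all-gene median. Hlf, a factor outside the lists that was among the 20 most enriched genes, stood at 696 CPM in the Cre and 266 CPM in the control library, 2.61-fold (2.22 to 3.09).

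Most receptors that activate ILC2 lay within 1.5-fold. Of 24 measured, 1 was higher in the Cre library and 2 lower (7.39% and 6.89% over all measured genes), with a median of -0.07. Tnfrsf4, encoding OX40, was the higher one, with 66 UMIs in 36 Cre cells and 7 UMIs in 4 control cells, 3.51-fold (1.61 to 9.07). Tnfrsf18, encoding GITR, stood at 309 CPM in the Cre and 425 CPM in the control library, and Vipr2, a receptor for the neuropeptide VIP, at 11.1 and 29.8 CPM. The IL-2 receptor alpha chain Il2ra stood at 371 CPM in each library, and the IL-7 receptor Il7r at 763 CPM in the Cre and 711 CPM in the control library. Il17rb, a subunit of the IL-25 receptor, stood at 57.7 CPM in the Cre and 39.2 CPM in the control library, a fold of 1.47 (0.943 to 2.39). Icos stood at 769 CPM in the Cre and 570 CPM in the control library.

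Of 25 measured inhibitory receptors and feedback genes, 2 were higher in the Cre library and none lower (7.39% and 6.89% over all measured genes). The list median was 0.15. Ctla4, an inhibitory receptor, had 96 UMIs in 42 Cre cells and 7 UMIs in 4 control cells, 5.10-fold (2.38 to 13.0). Cish, which cytokine receptors induce through STAT5, stood at 399 CPM in 284 Cre cells and 204 CPM in 66 control cells, 1.96-fold (1.62 to 2.38), and 2.97-fold with thinned cells. It was 2.23-fold higher (1.67 to 2.98) in B cells as well. Pdcd1 (PD-1) stood at 136 CPM in the Cre and 107 CPM in the control library, and Klrg1 at 44.3 and 51.7 CPM, and neither passed the limit.

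Of 25 measured genes of migration and residency, 3 were higher in the Cre library and 4 lower (7.39% and 6.89% over all measured genes). Cxcr6, a chemokine receptor of resident lymphocytes, had 628 CPM in 289 Cre cells and 353 CPM in 71 control cells, 1.78-fold (1.54 to 2.07). Thy1 was 1.80-fold higher (1.48 to 2.20) and Itgae, encoding the CD103 integrin chain, 2.36-fold (1.16 to 5.42) on 57 UMIs in the Cre and 9 in the control library. In B cells Cxcr6 stood at 3.72 CPM in the Cre and 0.124 CPM in the control library, and Thy1 at 9.52 and 1.74 CPM. CD4 T cells had 108 and 20.5 CPM of Cxcr6 and 530 and 252 CPM of Thy1, so both also differed outside the gate. The lower genes were Cxcr4, Gpr183, Klf2 and Ccr8. Gpr183, a receptor for oxysterols, stood at 93.3 CPM in the Cre and 190 CPM in the control library, and Cxcr4 at 248 and 390 CPM. Over the alternatives the fold ranged from 0.307 to 0.544 for Gpr183 and from 0.366 to 0.901 for Klf2. Ccr8, on 25 UMIs in the Cre and 19 in the control library, was 0.490-fold, and 1.78-fold with each cell thinned to 1000 UMIs, at 16.5 CPM in the Cre and 9.26 CPM in the control library, levels of a few UMIs, so no direction is given.

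Of 25 measured genes of activation signalling, 3 were higher in the Cre library and 2 lower (7.39% and 6.89% over all measured genes). The list median was 0.03. Irf4 had 146 UMIs in 68 Cre cells and 8 UMIs in 5 control cells, or 85.2 CPM in the Cre and 12.5 CPM in the control library, 6.79-fold (3.36 to 16.0), while in B cells it stood at 85.2 and 84.3 CPM. Nr4a3 stood at 944 CPM in 235 Cre cells and 472 CPM in 60 control cells, with a fold interval of 1.77 to 2.27. In B cells it stood at 48.8 CPM in the Cre and 8.95 CPM in the control library, 5.46-fold (4.17 to 7.21), so Nr4a3 also differed outside the gate. Stat5a had 51 UMIs in the Cre and 4 in the control library, 4.75-fold (1.74 to 18.1). Myc and Gadd45b were lower, Gadd45b with 1193 CPM in the Cre and 1704 CPM in the control library. The NF-kB genes Nfkb1, Rel and Nfkbiz lay within 1.5-fold.

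Of 20 measured genes of lipid, arginine and nutrient handling, 2 were higher and 1 lower (7.39% and 6.89% over all measured genes). Dgat1, which forms triglycerides, stood at 566 CPM in the Cre and 312 CPM in the control library, 1.82-fold (1.56 to 2.13). Tph1, the enzyme of serotonin synthesis, had 136 UMIs in 42 Cre cells and 21 UMIs in 3 control cells, 2.41-fold (1.51 to 4.02). Slc2a3, a glucose transporter, was lower on 22 UMIs in the Cre and 14 in the control library. With each cell thinned to 1000 UMIs it was higher, 2.37-fold, at 22.0 CPM in the Cre and 9.26 CPM in the control library. Those are levels of a few UMIs, so no direction is given. Arg1, an enzyme typical of resting lung ILC2, stood at 385 CPM in the Cre and 281 CPM in the control library, and Pparg at 50.2 and 42.3 CPM, both within the limit. In B cells Arg1 stood at 42.8 CPM in the Cre and 0.621 CPM in the control library.

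**Figure D3:**
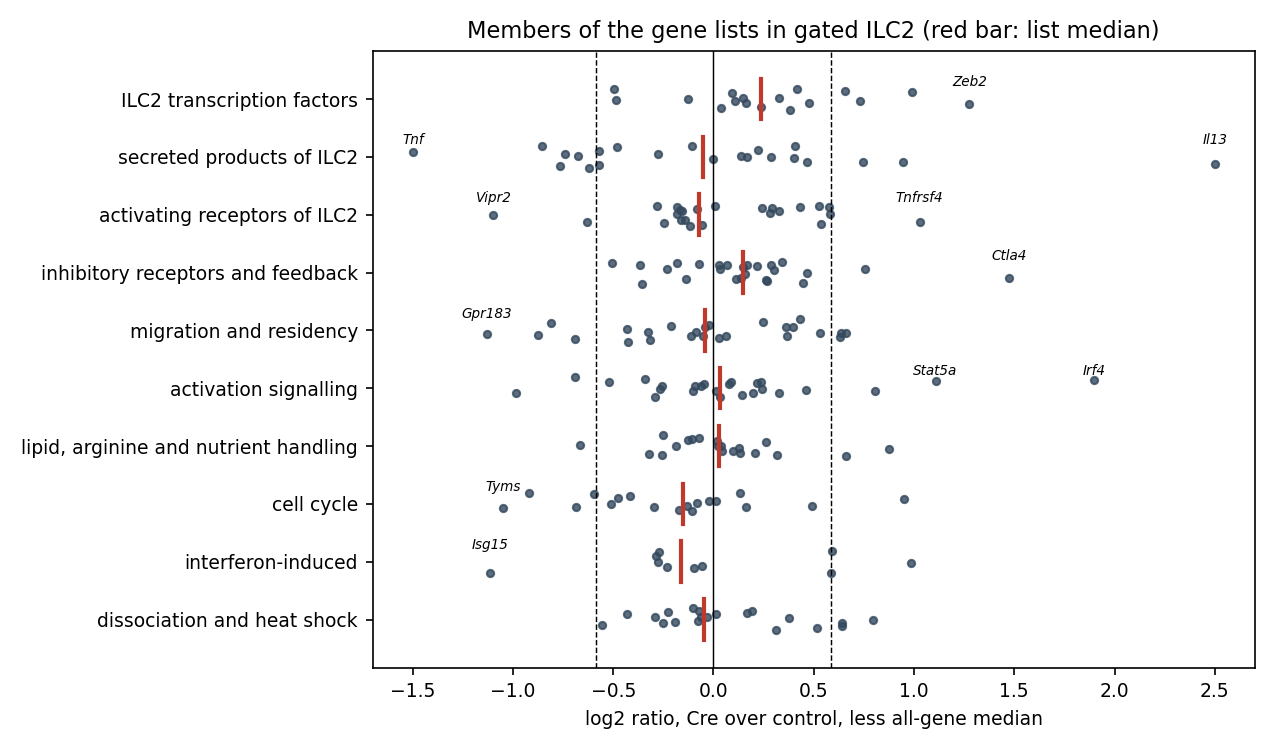
Each point is a measured gene of a list, placed by its log2 ratio of Cre over control in gated ILC2 less the all-gene median. Red bars are list medians and dashed lines mark 1.5-fold, and genes past a log2 value of 1 either way are named. Il13 lies farthest to the right and Tnf farthest to the left, and list medians lie between -0.16 and 0.24.

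Cells in division were a small part of the gated cells. At least 2 of 6 genes of the G2 and M phases were seen in 19 Cre cells, 5.21% (3.16 to 8.01%), and in 7 control cells, 6.48% (2.65 to 12.9%). Of 18 measured cell cycle genes, 1 was higher in the Cre library (Mcm6) and 4 lower (Tyms, Cdk1, Ccna2 and Rrm2). Over all measured genes the shares were 7.39% higher and 6.89% lower. Mki67 stood at 69.4 CPM in the Cre and 69.0 CPM in the control library. Among interferon-induced genes, Ifi27l2a stood at 89.8 CPM in the Cre and 34.5 CPM in the control library and passed the limit, and Isg15 was lower, at 11.7 and 31.3 CPM, and over the alternatives the fold of Ifi27l2a ranged from 1.41 to 5.25. Of the 20 genes of dissociation and heat shock, Hspa1a, Hspa1b and Hsp90aa1 were higher and none lower. Hsp90aa1 stood at 510 CPM in the Cre and 284 CPM in the control library, 1.80-fold, and at 508 and 380 CPM in B cells. Hspa1b was 2.32-fold higher in ILC2, with a range of 1.09 to 11.3 over the alternatives, and 3.31-fold higher in B cells, so heat shock genes also differed in cells outside the gate.

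A small part of the gated cells had IL-17 transcripts. Il17a or Il17f was seen in 31 Cre cells (8.49%) and 6 control cells (5.56%). Il17a had 180 UMIs in 22 Cre cells and 28 UMIs in 3 control cells, a fold of 2.39 (1.60 to 3.70). After thinning to 1000 UMIs it was 4.05, on 27.8 CPM and thus few UMIs in the control library. In the Cre library these cells had 1095 CPM of Gata3 and 1198 CPM of Il1rl1, against 1248 and 1079 CPM in the other gated cells. In the control library they had 490 CPM of Gata3 and 409 CPM of Il1rl1, against 806 and 774 CPM in the other gated cells. They held 87 Il13 and 47 Il5 UMIs in the Cre library and 5 and 31 in the control library.

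Genes above the minimum levels, in the lists or not, were ranked by the bound of their fold interval nearest to 1, and the 12 highest and 12 lowest were taken. Besides Il13 and Irf4, those higher in the Cre library included Gclc, Plod2 and Hsph1, seen in 201, 114 and 96 Cre cells. Il1r2 and Zfp503 were seen in fewer, 40 and 43 Cre cells, and 5 cells held 35.7% and 34.1% of their Cre UMIs. Zfp503 had 82 UMIs in the Cre and 4 in the control library, 7.63-fold (2.87 to 28.7). Il1r2, the decoy receptor for IL-1, had 98 UMIs in 40 Cre cells and 3 UMIs in 2 control cells, while in B cells it was lower in the Cre library, 0.543-fold. Gclc, a subunit of the enzyme that starts glutathione synthesis, stood at 285 CPM in 201 Cre cells and 70.5 CPM in 32 control cells, 4.04-fold (2.97 to 5.61), and was 2.81-fold higher in B cells. Plod2, a collagen lysyl hydroxylase, stood at 114 CPM in 114 Cre cells and 23.5 CPM in 12 control cells, 4.84-fold (2.86 to 8.81), and was 3.07-fold higher in B cells. Hsph1, a heat shock protein, was 7.28-fold higher in ILC2 and 3.90-fold higher in B cells.

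The other high-ranking genes rested on few cells. C4b, of the complement system, was 24.5-fold higher, but 89.7% of its 263 Cre UMIs lay in 5 cells, and the fold ranged from 6.87 to 71.4 over the alternatives. Asic3, an acid-sensing ion channel, had 60 UMIs in 10 Cre cells and 0 in the control library, at least 7.44-fold higher against a floor of 3 UMIs over the control cells, and 86.7% of them lay in 5 cells. Slurp1 lay in 4 Cre cells, Fxyd3 in 9 and Tgfb2 in 10. Tgfb2 had 0 Cre UMIs once cells with at least 3 UMIs of other lineages' genes were left out.

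Of the 12 lowest genes, Dad1, Ubb and Hilpda were abundant and spread over most cells. Dad1, a subunit of the oligosaccharyltransferase, stood at 520 CPM in 275 Cre cells and 1031 CPM in 101 control cells, 0.504-fold (0.456 to 0.559), and was at 0.960-fold in B cells. Hilpda, a lipid droplet protein induced by hypoxia, stood at 580 CPM in 253 Cre cells and 1089 CPM in 87 control cells, 0.533-fold (0.483 to 0.588), and was at 0.944-fold in B cells. Ubb, a polyubiquitin gene, was 0.520-fold in ILC2 and 0.664-fold in B cells. Gimap3, Pycard, Dbp, Ace and Ly6c1 were lower too, the most abundant of them, Pycard, at 54.2 CPM in the Cre and 122 CPM in the control library. With each cell thinned to 1000 UMIs the fold of Pycard was 0.949, at 44.0 CPM in the Cre and 46.3 CPM in the control library, few UMIs in the latter. For Mt1, Mt2 and Dcn, 5 cells held 65.4%, 67.3% and 90.4% of the UMIs in the Cre library and 93.4%, 91.0% and 98.4% in the control library, and Tnf was described above. Over the alternatives the fold ranged from 0.267 to 1.96 for Mt1 and from 0.122 to 6.58 for Dcn, so no stable direction is given for them. Without cells holding a Cd3 UMI the folds of Mt1 and Mt2 turned to 1.96 and 1.63, and with a gate sum of at least 5 that of Dcn turned to 6.58.

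**Figure D4:**
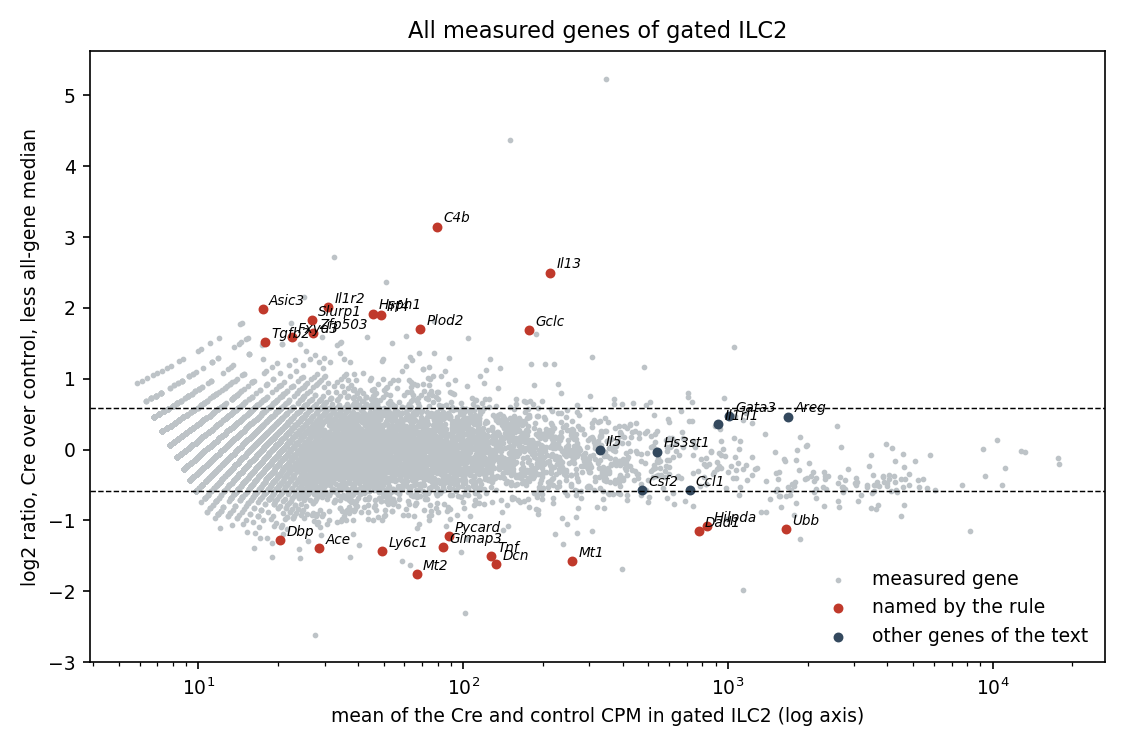
Each point is 1 of 8245 genes measured in gated ILC2, with the mean of the Cre and control CPM on a log horizontal axis and the log2 ratio of Cre over control less the all-gene median on the vertical axis. Red points are the 24 genes the ranking named, dark blue points are the gate genes and further products, and dashed lines mark 1.5-fold. Il13 lies far above the upper line, and Il5 lies at 0.

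RNA of other lung cells was present in the gated cells and differed between the libraries. The counts of markers stand beside 7.39% of all measured genes higher and 6.89% lower. All 8 markers of alveolar type 2 cells were measured, 5 of them lower in the Cre library and none higher, and their summed level was 7123 CPM in Cre and 13075 CPM in control ILC2, against 8553 and 10293 CPM in B cells. Of 5 erythroid markers 4 were lower, with 6198 CPM in the Cre and 11335 CPM in the control library. Of 11 measured macrophage or monocyte markers 2 were lower and none higher, with sums of 2642 and 3656 CPM, and of 7 fibroblast markers 3 were higher and 2 lower, with sums of 829 and 588 CPM. At least 3 UMIs over 11 genes of other lineages were found in 38 of 365 Cre cells and 13 of 108 control cells. Retnla, a product of macrophages stimulated by IL-4 or IL-13, had the highest ratio of all measured genes, with 685 CPM in Cre ILC2 and 6.27 CPM in control ILC2. Its thinned share of cells, 12.1% in the Cre library and 0 of 108 cells in the control library (which allows up to 2.78%), was no higher than in B cells, at 13.6% and 0.718%, so no difference of the ILC2 themselves is read from it. The part of such RNA in the differences was not tested. Il13 stood at 1.24 CPM in B cells of the Cre library and 0 in those of the control library, and its fold in ILC2 was between 4.86 and 7.56 in the 10 alternatives run.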

How the data were processed

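Whole-lung cells of both genotypes went through the 10x Chromium 3' v3 kit, per the labels' protocols, with 1 pooled library of 3 mice each. The deposited matrices hold UMI counts without normalization, as whole numbers, per the file headers. Cell Ranger 3.1.0, STAR and the build mm10 are named, per the submitters' processing notes, while filters and annotation are not stated. The gene symbols and identifiers are those of the files, and 30934 of 31053 identifiers matched GENCODE M21.

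A kept cell had at least 200 genes and 500 UMIs, with mitochondrial UMIs at 20% or less, which left 15111 of 16821 Cre barcodes and 12863 of 13587 control barcodes. The members, the gene lists and the alternatives were chosen with earlier results of these data known, and the ones named below as added were chosen after seeing the data. Comparison gates, all with a Ptprc UMI, were CD4 T cells (Cd3 sum at least 2, Cd4, no Foxp3 or Cd79a), regulatory T cells (Cd3 sum at least 2, Foxp3), NK cells (Ncr1 and Klre1 sum at least 2, Cd3 at most 1) and B cells (Cd79a at least 2, no Cd3). Free RNA was not subtracted. Scrublet's own threshold (scanpy 1.11.5) marked 1 Cre and 498 control barcodes and had not worked, so doublets were kept, and an alternative left out the top 6% by score in each library.

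UMIs of the gated cells were summed per library. Folds carry exact 95% intervals for 2 Poisson counts given their sum, shares the Clopper-Pearson interval (scipy 1.17.1), and the scripts were tested on simulated data. To set aside depth, 1000 UMIs were drawn from each cell before cells with a transcript were counted. Named genes had at least 30 UMIs, at least 30 CPM where higher, and at least 0.5 of the level in the other kept cells of that library. Mitochondrial, ribosomal, haemoglobin, immunoglobulin, predicted, dissociation, sex-linked and gate genes were left out of the ranking. Enriched genes had at least 50 CPM in both libraries. The results of some list genes are not reported here.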

Additional observations from a re-analysis of the deposited data

How the results depend on the processing

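The ratio of ILC2 shares kept its direction in all 11 alternatives, and moved beyond its interval in 1, the thinning before the gate, where it was 5.11. The fold of Il13 moved to 4.86 with each cell thinned to 1000 UMIs, and that of Il5 stayed between 0.983 and 1.17. The counts of genes past 1.5-fold were 950 higher with no filter on low counts, 1293 higher and 1014 lower with a pseudocount of 1, 109 higher and 72 lower with a pseudocount of 50, and 1281 higher and 232 lower with the all-gene median left on. With each cell thinned to 1000 UMIs, 153 of the 609 higher genes and 128 of the 568 lower genes were called again, so calls of single low genes depend on depth. The thinned folds come from a single random draw, and those of low genes rest on few UMIs. Shares with a UMI moved with depth itself. For Il13 they were 26.2% in the Cre library at 2000 UMIs, and 31.8% in the Cre and 13.0% in the control library without thinning. For Il5 they were 28.2% in the Cre and 26.9% in the control library at 2000 UMIs, and 38.4% and 38.9% without thinning. Of 749 alternative folds of named genes 676 stayed inside the main interval, 65 moved and 8 turned direction. The turned folds were 1.19 for Fxyd3, 1.78 for Ccr8, 2.37 for Slc2a3 and 1.09 for Hspa1b with thinned cells, 1.63 for Mt2 and 1.96 for Mt1 without Cd3 UMIs, 6.58 for Dcn with a gate sum of at least 5, and 0 for Tgfb2 without cells of other lineages' UMIs. The cause was not tested. The fold ranged from 1.76 to 10.9 for Hspa1a, from 4.06 to 22.2 for Slurp1, from 10.5 to 32.2 for Il1r2, from 3.90 to 7.83 for Stat5a, from 2.54 to 4.52 for Nfatc1, from 2.85 to 5.34 for Tnfrsf4, from 2.18 to 3.80 for Itgae, from 1.78 to 4.07 for Mcm6, from 0.609 to 0.984 for Rrm2 and from 0.297 to 0.924 for Cdk1. Alternatives added after seeing the data were the gate without its Cpa3 and Mcpt8 condition, members without other-lineage UMIs, and the share expected over all draws. No paired analysis was possible because there is 1 library per genotype, and no library could be left out.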
